A study of Mus musculus with 6 samples.

Results

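Ribosome biogenesis genes were examined in the livers of wild-type (WT) and *Txndc5*-deficient (KO) mice, as 51 named genes of the small subunit (SSU) processome, the snoRNP cores, the early steps of the large subunit, the nucleolus and the RNA exosome. All 51 were found by symbol among the 16123 genes of the deposited table. They were selected as a group with the KO over WT ratios of this same experiment known, so that their values are described below and not tested. *Txndc5* encodes a protein disulfide isomerase of the endoplasmic reticulum, and the comparison addresses what its absence does to the hepatic transcriptome.

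All mice were males of 2 months that received a purified chow diet for 4 weeks and were fasted for 16 h before liver RNA was taken. The WT mice were of strain C57BL/6Rj and the KO mice of strain C57BL/6JRj-Txndc5<em2Mdnp>/Ciba, homozygous for a deletion spanning exon 3 in every tissue and descended from 1 founder male. These strain names are those of the sample labels. The methods name C57BL/6J for the zygotes and for the wild-type mice bred with the founder, and mice of both genotypes came from crosses of heterozygous parents. RNA of 3 mice was combined in each pool, and 3 WT and 3 KO pools were sequenced as polyA RNA to between 44040160 and 46050030 clean reads, of which 91.6% to 93.7% mapped and 0.26% to 0.69% were rRNA. *Txndc5* measured 2697 in WT against 90.8 in KO, 29.7-fold lower, in the direction of the labels. The 8 hepatocyte markers were present at high values in both genotypes, with a summed value of 2432660 in WT and 2225980 in KO. In whole liver, fewer cells of a type and less RNA per cell cannot be told apart.

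Ribosomes are built in the nucleolus, where RNA polymerase I transcribes a long precursor that carries the 18S, 5.8S and 28S rRNAs. The SSU processome assembles on this precursor as it is made: the UTP-A and UTP-B complexes bind its leading spacer, the U3 snoRNP base-pairs with it, and the MPP10 module and many further factors hold the nascent small subunit until the spacer is cut away. Other snoRNPs guide rRNA methylation (box C/D) and pseudouridylation (box H/ACA), and the RNA exosome, a barrel of ring and cap subunits with attached nucleases, trims and degrades spacer RNA and many nuclear transcripts. In the liver, which exports much protein, ribosome supply follows feeding and growth.

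Promoter windows were available for 40 of the 51 genes from RefSeq on GRCm38.p6, each of 250 bases before and 30 bases after a transcription start. No window is given for *Utp6*, *Rrp12*, *Exosc9*, *Fbl*, *Wdr36*, *Npm1*, *Nol6*, *Tbl3*, *Bop1*, *Dcaf13* and *Exosc4*. Of the 8 genes lower in KO by the limit given below, 7 have a window, and 3 of the 7 windows hold a motif searched here. The windows of these 3 and of *Nop58*, whose reads per library are given below, are printed 5′ to 3′ on the strand of the gene, to show what the starts of these genes hold. Capitals mark the E-box CACGTG, the ETS motif CCGGAAG and the palindromic NRF1 motif, searched on both strands. The window of *Mphosph10* (chr7:64392207-64392486, minus strand) held 1 ETS motif and that of *Esf1* (chr2:140170529-140170808, minus strand) 1 NRF1 motif. The window of *Wdr43* (chr17:71615965-71616244, plus strand) held 1 E-box, and that of *Nop58* (chr1:59684756-59685035, plus strand) none of the 3 motifs. The windows of *Krr1*, *Exosc1* and *Ncl*, not printed, held none either.
Mphosph10: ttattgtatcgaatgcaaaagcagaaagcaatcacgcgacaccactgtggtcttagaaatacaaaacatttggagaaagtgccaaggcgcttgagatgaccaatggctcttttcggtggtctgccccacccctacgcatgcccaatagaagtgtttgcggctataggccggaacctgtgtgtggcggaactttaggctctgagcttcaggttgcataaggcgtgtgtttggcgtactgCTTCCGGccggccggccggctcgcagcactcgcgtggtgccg
Esf1: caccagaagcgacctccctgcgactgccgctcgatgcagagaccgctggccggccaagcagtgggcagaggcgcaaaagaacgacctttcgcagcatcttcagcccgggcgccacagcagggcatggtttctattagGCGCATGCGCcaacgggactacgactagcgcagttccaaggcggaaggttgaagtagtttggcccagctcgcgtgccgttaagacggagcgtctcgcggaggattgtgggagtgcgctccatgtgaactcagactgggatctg
Wdr43: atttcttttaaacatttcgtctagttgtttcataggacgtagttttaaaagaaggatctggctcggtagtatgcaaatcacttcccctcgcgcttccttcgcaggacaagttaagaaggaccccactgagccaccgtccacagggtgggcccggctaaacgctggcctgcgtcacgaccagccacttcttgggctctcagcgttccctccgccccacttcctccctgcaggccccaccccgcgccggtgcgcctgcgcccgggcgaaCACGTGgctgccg
Nop58: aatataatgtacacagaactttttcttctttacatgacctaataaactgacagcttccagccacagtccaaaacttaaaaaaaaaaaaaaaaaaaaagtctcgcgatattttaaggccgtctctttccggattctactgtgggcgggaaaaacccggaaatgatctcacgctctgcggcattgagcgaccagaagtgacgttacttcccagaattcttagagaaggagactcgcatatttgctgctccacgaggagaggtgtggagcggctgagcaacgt

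Over the 43 windows of the 40 genes, the ETS motif was found in 14 windows (32.6%), against 16.5% of the windows of all genes whose mean value reached 10 and 8.45% of all windows. The E-box was found in 6 windows (14.0%), against 9.61% and 6.79%. The NRF1 motif was found in 2 windows (4.65%), against 1.90% and 0.91%. These matches are a description of the sequence, and no binding was measured.

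The deposited table holds 1 value per gene and genotype, as reads scaled by library size factors, with the difference between the genotypes shrunken toward 0. A gene was counted as lower or higher in KO where its log2 ratio, calculated as log2((KO + 1)/(WT + 1)), passed 0.5 in either direction. Of the 51 genes, 8 were lower in KO (15.7%) and 0 were higher. Among all 11367 genes whose mean value reached 10, 865 were lower (7.61%) and 270 were higher (2.38%). The log2 ratio was below 0 in 42 of the 51 genes (82.4%) and in 57.7% of all genes, and its median was −0.14 in the 51 genes and −0.05 in all genes. As the genes were selected on this comparison, nothing is read from these shares. The lowest value belonged to *Mphosph10* (−1.41) and the highest to *Wdr36* (0.15). Next to the limit, *Ncl* stood at −0.51 and *Ebna1bp2* at −0.47.

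**Figure D1:**
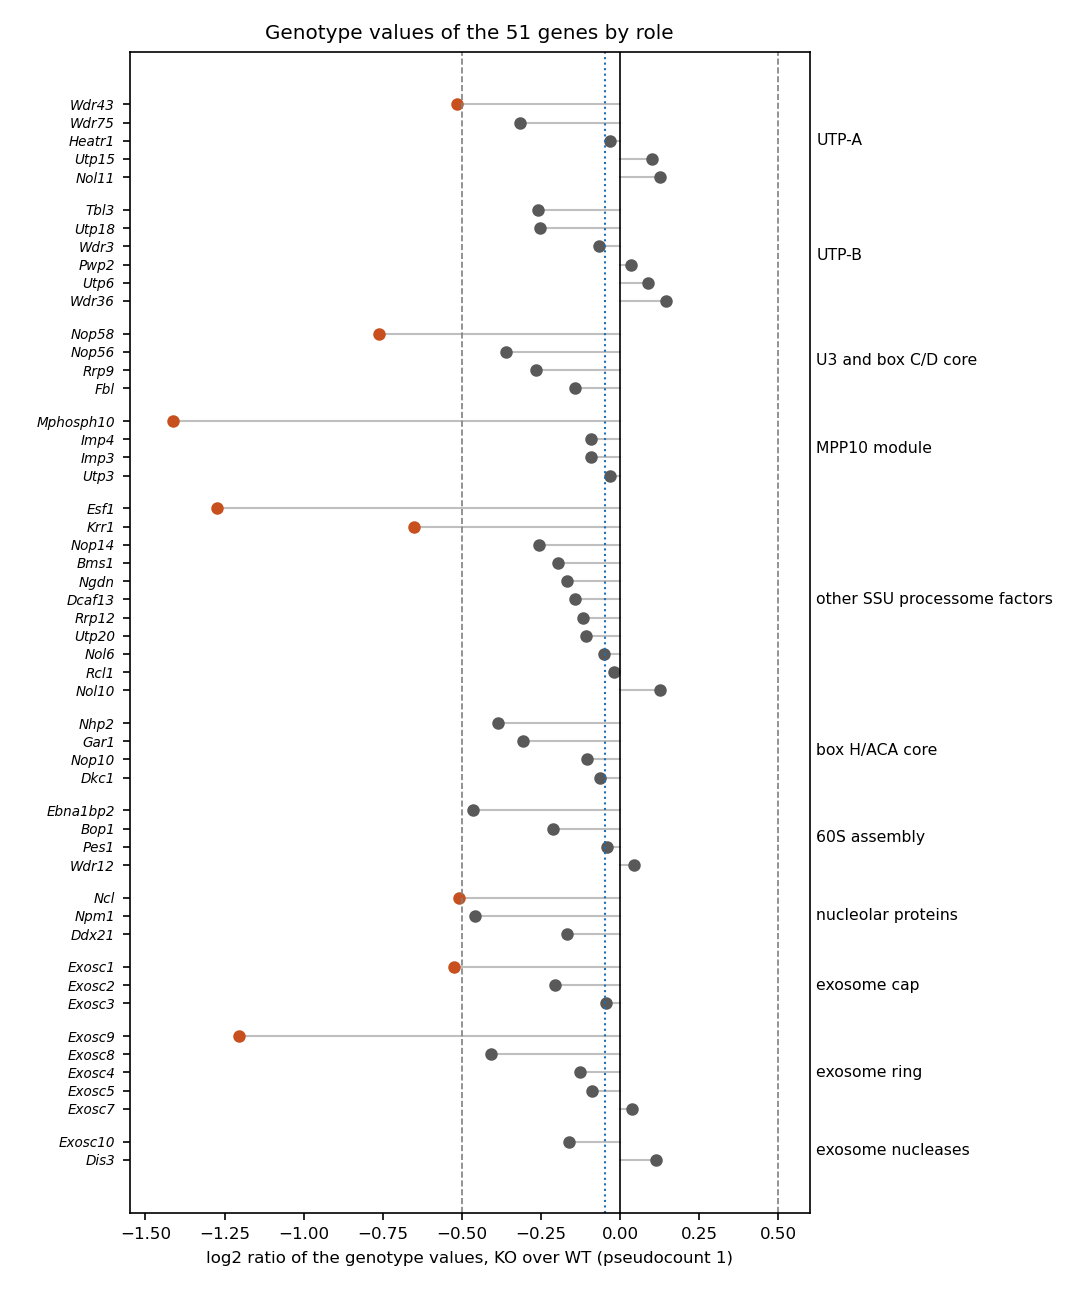
The log2 ratio of KO over WT of the genotype values (x axis, pseudocount 1) of each of the 51 genes (rows, grouped by role), with the limits of 0.5 as dashed lines and the median of all genes (−0.05) as a dotted line. The 8 genes past −0.5 are in orange; 3 of them, *Mphosph10*, *Esf1* and *Exosc9*, lie below −1.2, and no gene passes 0.5.

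Within the SSU processome, 5 of 30 genes were lower (16.7%, against 7.61% of all genes), with a median log2 ratio of −0.13. Counts by role, here and below, rest on few genes selected on this comparison, and nothing is read from them. The UTP-A complex, which is also needed for transcription of the rRNA precursor, had 1 of 5 genes past the limit. *Wdr43* measured 128 in WT against 89.3 in KO (−0.51), and *Nol11*, the highest of this complex, 80.4 and 87.8 (0.13). *Wdr75* (46.4 and 37.0, −0.32), the large HEAT repeat protein *Heatr1* (226 and 221, −0.03) and *Utp15* (47.1 and 50.6, 0.10) lay between them. The UTP-B complex stayed within the limit in all 6 genes, from −0.26 in *Tbl3* (479 and 399) to 0.15 in *Wdr36* (187 and 207), and 3 of the 6 were below 0. The other 4, *Utp18*, *Wdr3*, *Pwp2* and *Utp6*, ranged from −0.25 to 0.09. UTP-B had a median of −0.02, above the −0.05 of all genes.

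The 4 proteins of the U3 and box C/D core were all below 0, with a median of −0.31. *Nop58*, which binds the snoRNA together with *Nop56*, measured 85.7 in WT against 50.1 in KO (−0.76). *Nop56* had 328 and 255 (−0.36), and *Rrp9*, which is specific to the U3 particle, 232 and 192 (−0.27). Fibrillarin (*Fbl*), the methyltransferase of this particle, had the value nearest to 0, with 591 and 535 (−0.14).

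The MPP10 module split into 1 low gene and 3 genes near 0. *Mphosph10*, its central scaffold (chr7:64376541-64392236), measured 46.5 in WT against 16.8 in KO, a log2 ratio of −1.41 and a 2.76-fold difference. Only 6 of the 11367 genes had a lower ratio. Such ranks, here and below, rest on 1 value per genotype. As the genes were selected on this comparison, nothing is read from them. *Imp3* and *Imp4*, which bind the MPP10 protein directly, had values of 714 and 671 (−0.09) and of 352 and 330 (−0.09). *Utp3* had 233 and 228 (−0.03). The value of *Mphosph10* was therefore not shared by the other genes of its module.

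Of the 11 further SSU processome factors, 2 were lower and 10 were below 0, against 7.61% and 57.7% of all genes. *Esf1*, a nucleolar factor needed for early cleavages (chr2:140119881-140170558), measured 76.7 in WT against 31.2 in KO (−1.27), and only 10 of the 11367 genes had a lower ratio. *Krr1*, a KH domain protein of the same particle (chr10:111972695-111988430), had 80.3 and 50.8 (−0.65). *Nol10* was the highest with 44.3 and 48.5 (0.13). *Nop14* (189 and 159, −0.26), the GTPase *Bms1* (165 and 144, −0.20), *Ngdn*, *Dcaf13*, *Rrp12*, *Utp20* and *Nol6* lay between −0.26 and −0.05, none of them past the limit. *Rcl1*, which is linked to the cleavage between the 2 subunit precursors, had the highest mean value of all 51 genes, with 1556 in WT and 1534 in KO (−0.02).

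Among the genes outside the SSU processome and the exosome, the nucleolar proteins had the lowest median (−0.46, 3 genes). Nucleolin (*Ncl*), an abundant RNA-binding protein of the nucleolus, measured 755 in WT against 531 in KO (−0.51), and nucleophosmin (*Npm1*), a histone and ribosome chaperone, 750 and 546 (−0.46). The RNA helicase *Ddx21* had 305 and 271 (−0.17). The 4 genes of the box H/ACA core were within the limit and below 0, from *Nhp2* (540 and 414, −0.38) to the pseudouridine synthase *Dkc1* (73.2 and 70.1, −0.06), with *Gar1* (51.1 and 41.1, −0.31) and *Nop10* (694 and 646, −0.10) between. The 4 genes of large subunit assembly were also within it, from *Ebna1bp2* (217 and 157, −0.47) to *Wdr12* (110 and 114, 0.04). *Wdr12* acts in 1 complex with *Pes1* (−0.04) and *Bop1* (847 and 730, −0.21), the latter with the highest mean value of the 51 genes after *Rcl1*.

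The RNA exosome had 2 of 10 genes past the limit (20%, against 7.61% of all genes) and a median of −0.14. Of its 3 cap subunits, *Exosc1* had 122 in WT and 84.5 in KO (−0.53), *Exosc2* 112 and 97.0 (−0.21) and *Exosc3* 45.6 and 44.2 (−0.04). Of the 5 ring subunits among the 51 genes, which leave out *Exosc6*, *Exosc9* (chr3:36552606-36565727) had 55.1 and 23.3, a log2 ratio of −1.21 that only 20 of the 11367 genes went below. *Exosc8* had 39.2 and 29.3 (−0.41), *Exosc5*, next in mean value after *Rcl1* and *Bop1*, 779 and 731 (−0.09), *Exosc4* 691 and 633 (−0.13), and *Exosc7* 144 and 148 (0.04). The nucleases did not pass the limit in either direction, with 516 and 462 in *Exosc10* (−0.16) and 56.5 and 61.2 in *Dis3* (0.11).

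Per kilobase of the deposited gene length, the mean value over both genotypes ranged from 12.0 in *Utp15* to 908 in *Nop10*, the small box H/ACA protein. These ring subunits of the exosome, which occur in equal numbers in the complex, also differed in level, with 725 per kilobase for *Exosc5*, 370 for *Exosc4*, 141 for *Exosc7*, 26.9 for *Exosc8* and 24.2 for *Exosc9*. The 2 of these ring genes with the lowest levels were those with the lowest ratios. In the MPP10 module, *Imp3* had 757 per kilobase and *Mphosph10* 14.4.

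For genes with few reads, the counts behind the genotype values were worked out library by library. This is possible because 6 whole numbers scaled by size factors seldom give the same mean in more than 1 way. The size factors were themselves estimated from the same genotype values. The libraries are named by genotype and size factor, as the recovered values carry no pool number: 1.22, 0.879 and 0.818 in WT and 1.31, 1.04 and 0.886 in KO. Reads were recovered for 16 of the 51 genes, those with a summed normalized read count of 190 to 504 and a unique solution, so that the genes with high values are not represented. Values are given below in this order of libraries as normalized reads, which are reads divided by the size factor. The difference between genotypes is that of the mean log2(normalized reads + 1), with its SE from 3 against 3 pools, and no test was made of it.

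*Mphosph10* had 56.3, 66.0 and 28.1 normalized reads in WT and 20.6, 7.72 and 11.3 in KO. Every KO library was below every WT library, with a mean of 50.1 ± 19.7 in WT and 13.2 ± 6.63 in KO (SD, n = 3 pools) and a log2 difference of −1.87 ± 0.53 (SE). The 3 KO values rest on 27, 8 and 10 reads. *Exosc9* had 61.2, 63.7 and 50.1 in WT and 31.2, 15.4 and 13.5 in KO. Its groups did not overlap either, with means of 58.4 ± 7.22 and 20.1 ± 9.71 (SD, n = 3 pools) and a difference of −1.58 ± 0.37 (SE). *Exosc8* had 32.7, 51.2 and 36.7 in WT and 24.4, 29.9 and 30.5 in KO. The lowest WT library lay just above the highest KO library, and the difference was −0.47 ± 0.21 (SE).

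The same absence of overlap was counted over all 3793 recovered genes with a summed normalized read count of at least 60. Every KO library was below every WT library in 91 of them (2.4%) and above in 119 (3.14%). Among the 16 genes the counts were 3 and 0, and as the genes were selected on this comparison the shares are given side by side only.

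*Esf1* had 118, 97.8 and 33.0 normalized reads in WT and 33.5, 7.72 and 33.9 in KO. The WT library 0.818 lay at the level of the upper KO libraries, so that the groups overlapped, with a difference of −1.75 ± 0.87 (SE). *Krr1* had 151, 69.4 and 33.0 in WT and 75.4, 32.8 and 31.6 in KO (−0.70 ± 0.74, SE). *Nop58* had 167, 67.1 and 36.7 in WT and 65.5, 28.0 and 42.9 in KO (−0.78 ± 0.72, SE). In both genes the WT library 1.22 held more than any other library and the SE was close to the difference itself.

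**Figure D2:**
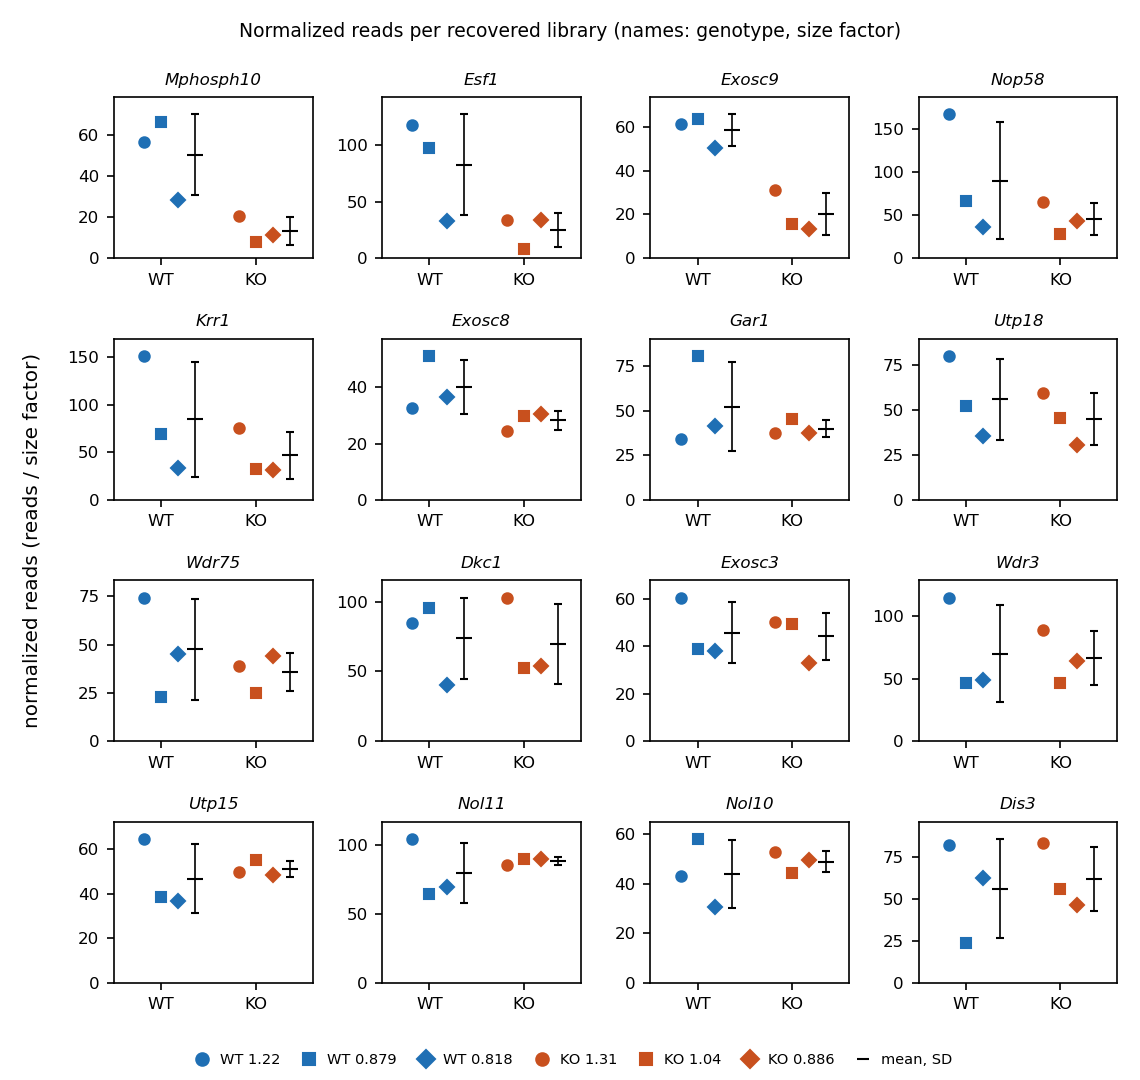
Normalized reads (y axis, reads scaled by the size factor) in each of the 16 genes with recovered reads in the 3 WT (blue) and 3 KO (orange) libraries, with the mean and SD of each genotype in black. *Mphosph10*, *Exosc9* and *Exosc8* have no KO library at or above a WT library; *Krr1* and *Nop58* have their highest value in the WT library 1.22.

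Leaving out 1 library at a time kept the differences of *Mphosph10* between −2.23 and −1.56, of *Exosc9* between −1.93 and −1.36, of *Esf1* between −2.31 and −1.08 and of *Exosc8* between −0.61 and −0.29. Without the WT library 1.22, the difference went from −0.78 to −0.21 in *Nop58* and from −0.70 to −0.16 in *Krr1*. When each library was centred on the median of all recovered genes, the groups of *Mphosph10* and *Exosc9* remained apart and those of *Exosc8* overlapped.

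The other 10 genes with recovered reads had differences from −0.28 in *Gar1* to 0.27 in *Dis3*, each smaller than its SE and with overlapping groups. *Dis3* had 81.6, 23.9 and 62.4 in WT and 83.1, 56.0 and 46.3 in KO. *Nol11* had 105, 64.8 and 69.7 in WT and 85.3, 89.8 and 90.3 in KO, and *Dkc1* 84.9, 95.5 and 40.4 in WT and 103, 52.1 and 54.2 in KO. In all 3 genes the spread within a genotype was wider than the gap between the genotypes. *Gar1* had 34.3, 80.8 and 41.6 in WT and 37.3, 45.4 and 37.3 in KO, with 1 WT library standing apart. *Utp18* had 80.0, 52.3 and 35.5 in WT and 59.4, 45.4 and 30.5 in KO, and *Wdr75* 74.3, 22.7 and 45.2 in WT and 38.9, 25.1 and 44.0 in KO. *Exosc3*, *Wdr3*, *Utp15* and *Nol10* ranged from 30.6 to 115 in WT and from 32.7 to 89.2 in KO. In *Utp18*, *Wdr75*, *Exosc3*, *Wdr3* and *Utp15*, as in *Nol11*, the highest WT value was that of the library 1.22.

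Over the 16 genes the median difference was −0.28, and it was −0.06 both over the 1906 recovered genes in the same range of sums and over all 3793 with a sum of at least 60. Without the WT library 1.22 the median was 0.05 for the 16 genes and 0.09 for the 3793 genes, so that the sign of the group median rested on this library.

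The 6 libraries were uneven in the reads of weakly expressed genes. The WT library 1.22 held 144374 normalized reads of the recovered genes with a sum of 60 to 400, against 99146 and 93339 in the other WT libraries, and the KO library 1.31 held 115775 against 94786 and 91263. The WT library 1.22 was the highest of its genotype in 10 of the 16 genes (62.5%), against 60.1% of the recovered genes in the same range. The WT library 0.818 was the lowest in 10 of the 16 (62.5%), against 42.5%.

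These differences between libraries followed the GC content of the transcripts. In recovered genes with a GC content below 40%, the median log2 deviation from the mean of the 6 libraries was 1.52 in the WT library 1.22 and −0.08 and −0.40 in the other WT libraries. In KO it was 0.42 in the library 1.31 and −0.62 and −0.70 in the others. In genes with a GC content of 50% to 55%, all 6 medians lay between −0.12 and 0.10. Of the 16 genes, 10 had a GC content below 45%, and the medians over the 16 were 0.65, 0.29 and −0.24 in WT and 0.12, −0.26 and −0.23 in KO. In the WT library 0.879 the 16 genes (0.29) lay above the recovered genes of every GC range, of which the highest was 0.13. Nothing is read from this, because the genes were selected with the KO over WT ratios known.

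**Figure D3:**
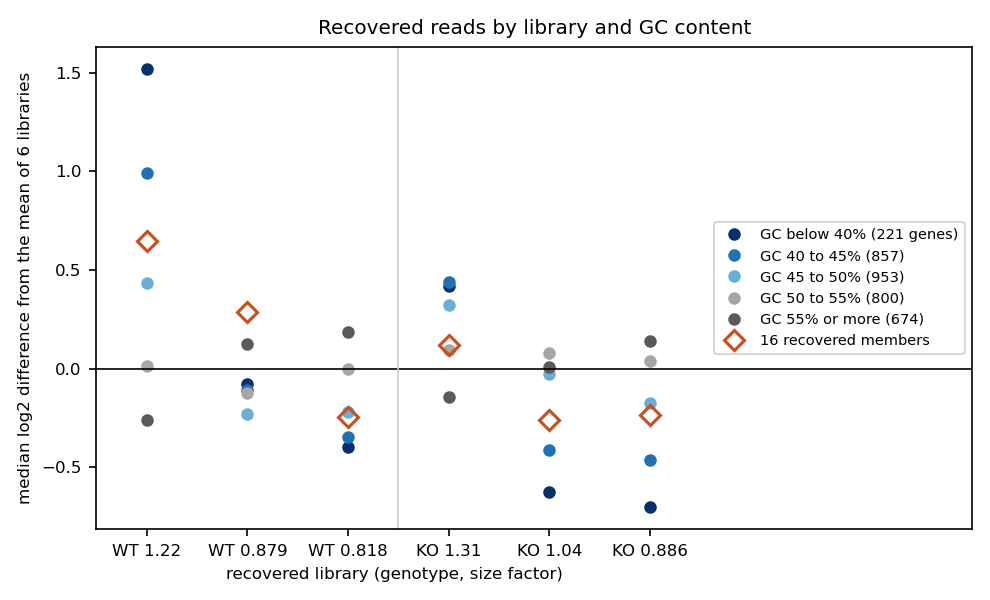
Median log2 deviation of log2(normalized reads + 1) from the mean of the 6 libraries (y axis) in each recovered library (x axis) for recovered genes of 5 ranges of GC content (filled points) and for the 16 genes with recovered reads (open diamonds). Genes low in GC stand high in the WT library 1.22 (1.52 below 40% GC), and the 16 genes follow at 0.65.

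The genotype values showed the same dependence. All 8 lower genes had a GC content of at most 47.1%, with a median of 42.7%, against 49.3% in the 43 genes within the limit and 50.9% in all genes. For GC content and lysine codons, all genes are the 10820 of the 11367 genes with an annotated coding transcript. Of all genes with a GC content below 40%, 55.2% were lower in KO, and of those between 40% and 45%, 21.3%. From 45% to 50% the share was 3.53%, from 50% to 55% 1.39%, and from 55% upward 2.02%. In the same ranges 1 of 1, 6 of 14, 1 of 15, 0 of 12 and 0 of 9 of the 51 genes were lower. The median log2 ratio of the 51 genes in these ranges was −1.27, −0.39, −0.09, −0.14 and −0.14, and that of all genes −0.54, −0.24, 0.02, 0.03 and −0.05. In these ranges 1 of 1, 9 of 14, 11 of 15, 11 of 12 and 8 of 9 genes were below the median of all genes. Nothing is read from these counts, because the 51 genes were selected on this comparison. GC content belongs to the annotated transcript, whose length differed from the deposited gene length in some genes. The lengths were 9507 and 1976 bases in *Nop58* (41.0% GC) and 1018 and 1607 in *Exosc1*. They were 5836 and 2249 in *Imp4*, 5226 and 2515 in *Tbl3* and 5150 and 3722 in *Dis3*.

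Within its range of GC content, *Mphosph10* (42.5%) had the lowest ratio of all 1805 genes. *Exosc9* (44.5%) had 6 genes of the same range below it and *Esf1* (39.0%) had 3 of 375. *Nop58* had 118 of 1805 below it, *Krr1* (42.4%) 200, *Wdr43* (44.3%) 367 and *Ncl* (42.8%) 374. *Exosc1* (47.1%) had 85 of 2694 below it. The part of GC content in the differences of the genes was not tested.

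**Figure D4:**
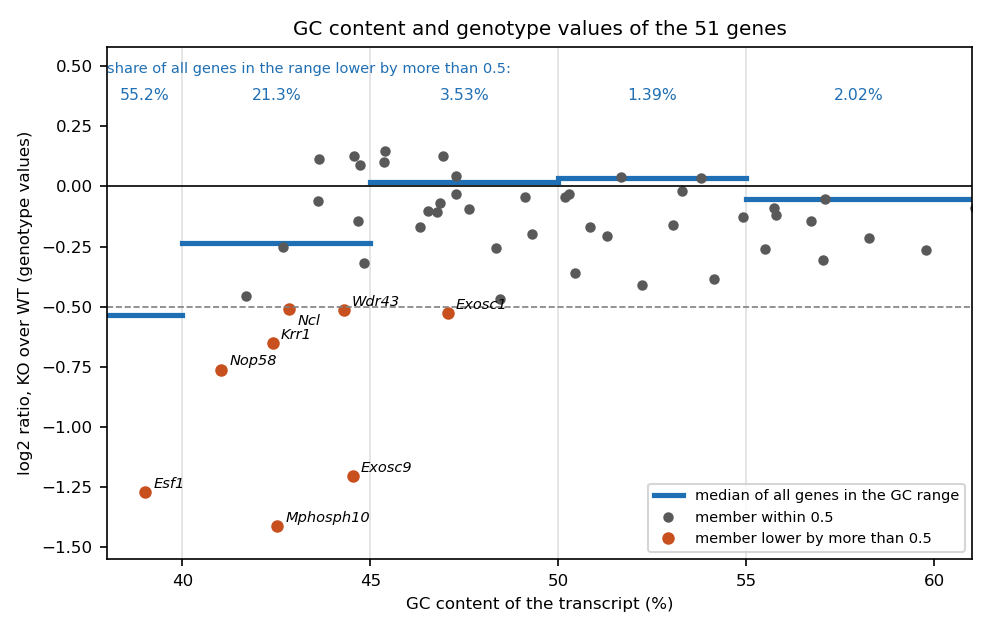
The log2 ratio of KO over WT of the genotype values (y axis) of the 51 genes against the GC content of the transcript (x axis), with the median of all genes in each GC range as a bar and the share of all genes in the range lower by more than 0.5 as text. *Mphosph10*, *Esf1* and *Exosc9* lie far below the bar of their range, while *Krr1*, *Wdr43*, *Ncl* and *Nop58* lie between −0.5 and −0.8 in the range whose bar is at −0.24.

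Lysine codons, frequent in nucleolar proteins with basic tails, made up a median of 7.58% of the coding sequence in the 51 genes, 12.7% in the 8 lower genes and 5.61% in all genes. Across the 51 genes the log2 ratio had a Spearman's rho of −0.37 with the share of lysine codons and of 0.19 with GC content, and across all genes of −0.18 and 0.22. These are correlations across genes that share their libraries, given without a test. Lysine codons are A-rich, so that these features are linked in sequence.

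Genes of the same pathways outside the 51 were taken from 4 lists, of 130 genes in all, of which 129 reached a mean value of 10. Of these, 14 were lower in KO (10.9%, against 7.61% of all genes) and 0 were higher (2.38% of all genes). All lists were chosen with earlier results of these data known, so that nothing is read from their shares or p-values, here or below. The log2 ratio was below 0 in 78.3% of the 129 genes and in 57.7% of all genes, with medians of −0.16 and −0.05. Reads were recovered at a sum of at least 60 for 33 genes of the lists. In 1 of them every KO library was below every WT library and in 1 above, against 2.4% and 3.14% of all recovered genes. Their median difference was −0.27. Their median log2 deviations from the mean of the 6 libraries were 0.66, 0.03 and −0.33 in WT and 0.18, −0.17 and −0.30 in KO. Of 34 other SSU factors 2 were lower (5.88%), *Nol7* (−0.74) and *Ddx10* (−0.63), and the highest was *Rrp8* (0.25). Of 54 other large subunit factors 5 were lower (9.26%). *Tma16* had −0.81 and *Nmd3*, the export adaptor of the large subunit, −0.76, while the giant ATPase *Mdn1* had 0.27.

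Of 21 further exosome subunits and cofactors 4 were lower (19.0%). *Zfc3h1*, which links polyadenylated nuclear RNA to the exosome, measured 84.3 in WT against 38.2 in KO (−1.12), and *C1d*, a cofactor of *Exosc10*, 90.3 and 50.1 (−0.84). The poly(A) polymerase *Papd7* had 0.41. *Zfc3h1* had 216, 29.6 and 34.2 normalized reads in WT and 53.3, 20.3 and 13.5 in KO, so that 1 WT library stood far above the rest. *C1d* had 126, 107 and 50.1 in WT and 64.8, 44.4 and 29.4 in KO. Of 20 genes of RNA polymerase I and its factors 3 were lower (15%), among them *Taf1d* (−1.11) and the shared subunit *Polr2k* (−0.91), and *Polr1b* was the highest (0.18).

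The KO and WT libraries were compared with limma over all 3302 recovered genes with a sum of 60 to 400. No gene had an adjusted p under 0.05 (0%, Benjamini-Hochberg over 3302 genes), and 54 (1.64%) had an unadjusted p under 0.05. Of the 130 genes of the 4 lists 24 were in this fit, and 3 had an unadjusted p under 0.05, all lower in KO. They were *Taf1d* (log2 difference −1.44 ± 0.62, SE), *Twistnb*, a subunit of RNA polymerase I (−1.09 ± 0.48), and *Tma16* (−1.32 ± 0.59). The adjusted p of limma was 0.999 in each of them, so that none passed the correction over the 3302 genes. *Twistnb* had 84.9, 79.6 and 35.5 normalized reads in WT and 46.5, 19.3 and 26.0 in KO.

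Host genes of snoRNAs, whose introns carry the guides of the box C/D and H/ACA particles, had 1 of 9 genes past the limit (11.1%, against 7.61% of all genes) and all 9 below 0, with a median of −0.33. *Gas5* had −0.80, *Snhg20* −0.48 and *Snhg12* −0.04. Of 4 RNAs retained in the nucleus whose mean value reached 10, 3 were past the limit (75%, against the same 7.61%), with a median of −0.81. All 8 such RNAs with a deposited value had a summed value of 3147 in WT and 1822 in KO. *Kcnq1ot1* had −0.99, *Neat1* −0.85 and *Firre* −0.38. *Firre*, the only one recovered at a sum of at least 60, had 302, 20.5 and 24.5 normalized reads in WT and 117, 40.5 and 15.8 in KO. The WT library 1.22 and the KO library 1.31 thus stood above the others of their genotype in this RNA too. The part of nuclear RNA content of the libraries in the values of the 51 genes was not tested.

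Markers of other liver cells were examined beside these values, and of all genes 7.61% were lower and 2.38% higher. None of the 8 hepatocyte markers passed the limit, from *Apoa1* (−0.40) to *Hnf4a* (0.23), and none of the 6 sinusoidal endothelial or 6 cholangiocyte markers did. Of 7 Kupffer cell markers 1 was higher (*Marco*, 0.61), and their summed value was 2916 in WT and 3368 in KO. Of 7 stellate cell markers *Dcn* was lower (−0.50) and 2 were higher, among them *Col1a1* (0.75). Of 3 lymphocyte markers whose mean value reached 10 *Ptprc* was lower (−0.62), and of 3 proliferation markers that reached it *Mcm2* was higher (0.61). Of 5 erythroid markers whose mean value reached 10, 3 were higher, up to 0.79 in *Hbb-bs*. All 6 erythroid markers had a summed value of 118787 in WT and 180311 in KO. Their part in the values of the 51 genes was not tested.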

How the data were processed

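Liver polyA RNA of 3 WT and 3 KO pools was sequenced, and samples were grouped by the genotype in the labels. The submitters' processing notes name HISAT2, StringTie, Cufflinks, GATK, Bowtie2 and RSEM and the build mm10, and versions are not given in the sources used here. The gene table deposited by the authors gives 1 expression signal for WT and 1 for KO, in reads normalised with the size factors of DESeq2. Clean read counts and the percent of reads mapped or from rRNA were deposited per library. The authors' own log2 ratios and p-values and the numbers of splicing events were not used.

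The 51 genes and all lists were chosen with earlier results of these data known. Genes named by rule were those past 0.5, the lowest and highest of each role, those whose genotypes did not overlap, the 3 with the highest mean value, and the 2 lowest and 1 highest of each further list. The remaining genes of the 51, and *Twistnb*, were named after their values were seen.

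Reads per library were recovered from 3 times the sum of both genotype values. The worth of 1 read came from values shared by at least 20 genes, and all sets of whole numbers were enumerated up to a sum of 620 within 2.0 times the rounding. From a sum of 400 upward the order of the 2 genotype values was used where the log2 ratio passed 0.5. Up to 400, 8056 of 8081 genes were resolved (99.7%), and from 400 to 620, 491 of 1074 (45.7%). As RSEM is named, these reads may be rounded expected counts, and their counting error is large. limma (version 3.58.1, R 4.3.3) was fitted with a trend on log2(normalized reads + 1), and its p-values cover the spread between pools only. The recovery and limma were run on simulated data as a check of the code. The limma simulation left out the differences between libraries by GC content, so that it does not show how many true differences the fit would find here. GC content and lysine codons came from GENCODE M21 transcripts on GRCm38, of the length nearest to the deposited one among those with at least 0.9 of the longest coding sequence. Counting was not stated to use strand, so that reads of overlapping genes cannot be told apart. Alternatives were other pseudocounts, minimum values, fold limits, centring, quantile normalization, a model term for the 2 libraries of largest size factor, and leaving out each library.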

Additional observations from a re-analysis of the deposited data

How the results depend on the processing

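No paired analysis was possible because the genotypes share only 1 pool number in the labels and the recovered libraries carry none. The number of lower genes among the 51 was 8, and it was 5 after centring on the median of all genes, when *Exosc1* (−0.48), *Wdr43* (−0.47) and *Ncl* (−0.46) fell within the limit. It was 15 at a fold limit of 0.3 and 3 at a limit of 1, while all genes had 17.7% and 0.66% lower. With a pseudocount of 5, *Wdr43* had −0.496. In the 4 further lists, 8 of 112 genes were lower at a minimum mean value of 50, against 5.35% of all genes. At a limit of 0.3, 39 of 129 were lower (17.7% of all genes) and 2 higher (9.08% of all genes). At a limit of 1, 2 of 129 were lower (0.66% of all genes). Among the 16 genes with recovered reads, leaving out 1 library gave 3 to 5 genes with every KO library below every WT library and 0 to 2 above, while the share of the 3793 recovered genes was 4.72% to 13.6% below and 5.25% to 12.4% above. The median difference then went from −0.42 without the WT library 0.818 to 0.0523 without the WT library 1.22, which turned its sign, and it was −0.13 without the KO library 0.886. Without the library of the largest size factor in each genotype, an alternative added after the data were seen, 2 genes lay above (16.2% of the recovered genes) and 4 below (19.1%). The limma count with an unadjusted p under 0.05 ranged from 21 to 169 when 1 library was left out, with 137 without the WT library 1.22, 140 without the WT library 0.818, 169 without the KO library 1.31, 21 without the KO library 1.04 and 23 without the KO library 0.886. It was 90 at a minimum sum of 20 and 249 with a model term for the libraries of largest size factor, when 2 genes had an adjusted p under 0.05. Quantile normalization moved the median log2 difference of the 3302 genes from −0.07 to 0.04. Of 177 alternative values, 151 were classed as the same as the main value, 4 as weaker, 21 as moved and 1 as reversed. The first class was wide. It held *Nop58* at −0.21 (main value −0.78) and *Krr1* at −0.16 (main value −0.70) without the WT library 1.22. Fold limits change the counts by construction, and the loss of a library can only add genes without overlap. The cause of the other changes, in the medians and the limma counts among them, was not tested. The recovery, which ends at a sum of 620, limits the values per library to genes with few reads, at most 205 in a library among the 16, and genes with higher values have no spread between pools here.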
